A study of Homo sapiens with 4 samples.

Results

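The RNA described here came from untreated SUM149 cells, an established human line derived from an inflammatory breast cancer, and was read in the Cy5 (red) channel of a single two-colour Agilent array. Genes were chosen by signal: a gene was counted as detected where at least 1 of its probes was well above the local background in Cy5 and carried no outlier mark, and detected genes were ranked by the processed Cy5 signal of the probe that represented them. Of 34755 genes named on the array, 34677 were measured on this array and 22454 were detected. The series holds 4 arrays of SUM149 cells, 1 per condition: untreated cells, and cells kept for 3, 6 or 12 h in 2.5 uM ACY1215 (Ricolinostat), an inhibitor of the cytoplasmic deacetylase HDAC6. All 4 shared 1 slide and a common Cy3 (green) reference. With 1 array per condition no value below has a replicate check, and no p-value is given.

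The breast epithelium has an inner luminal layer and an outer basal layer. Luminal cells are known for simple keratins such as KRT8 and KRT18, for the transcription factors GATA3 and FOXA1 and, in part of the cells, for the estrogen receptor. Basal cells sit on the basement membrane through laminin and hemidesmosomes and are known for KRT5, KRT14 and KRT17. Inflammatory breast cancer is an aggressive disease in which tumour cells fill the lymphatic vessels of the skin, and lines of this disease are used as models without the skin and lymphatic cells of the tumour.

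Repeat spots set the precision of these signals. Spots of the same probe, printed 9 or more times across the array, had a median SD of 0.0635 on the log2 Cy5 scale over 237 probes. Different probes of the same gene had a median SD of 1.45 over 5398 genes, so the order of 2 genes by brightness was no measure of which had more RNA, and ranks below are a description of spots. For the log2 ratio of Cy5 over Cy3 the same SD was 0.438. Areas with many outlier spots or shifted Cy3 signals covered 5.02% of the untreated array, and genes whose spots lay there are named as such. The faintest Cy5 signal of any probe called well above background was 18.0. Over all genes the treated arrays read brighter than the untreated one, by a median log2 Cy5 signal of 0.20, 0.20 and 0.11 at 3, 6 and 12 h. Where the untreated array is called the lowest of the 4 below, that shift is not removed. The labels describe the reference as a pool of the treated and untreated SUM149 RNA. In the files, 1974 of 24321 genes well above background in Cy3 (8.12%) had a Cy3 signal more than 4-fold above the highest of the 4 Cy5 signals, whereas a mix of the 4 samples would lie within their range on this scale. The ratio is therefore used only as a second view, against an RNA of unsettled content.

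Ribosomal, cytoskeletal and keratin genes were the brightest. The 25 brightest genes ran from RPS2 at 586711 to RPL6 at 317118, were all detected on each of the 4 arrays and included 10 genes of ribosomal proteins. Among them RPS6 read 581784, RPS18 480063, RPS21 415861, RPS29 334230, RPS7 330926, RPL35 328300 and RPS28 319935. The keratins KRT81 (572487), known from the hair shaft, and KRT7 (350979), of simple epithelia, stood at rank 3 and 15. The metallothionein MT2A, which binds zinc and other metals, read 508865, and the iron-storage ferritin chain FTH1 read 425882. Beta-actin (ACTB, 356274), the histone gene HIST1H4C (393439), ribosomal RNA (RNA28S5, 406076), the mitochondrial-like MTRNR2L1 (345795) and the actin pseudogenes ACTG1P20 (333475) and ACTG1P4 (332715) were also in this set. Probes for such copies may also bind the RNA of the parent gene. The 25 genes held 8.49% of the summed signal of 22185 ranked genes, and the 1000 brightest held 66.0%.

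Some names in this set rested on a single bright probe. CC2D1A was represented by a probe at 370983, whereas its other probes read 2382 and 137. For ZNF865 the values were 327225 against 386 and 44.2, and for the noncoding lnc-WWC2-1 399125 against 12.5, the latter not above background. The unnamed transcript XLOC_l2_015885 read 326732 from its only probe. The second RPS6 probe read 785 and the second HIST1H4C probe 3964. By contrast the 3 FTH1 probes lay close together, at 425882, 330155 and 309903.

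**Figure D1:**
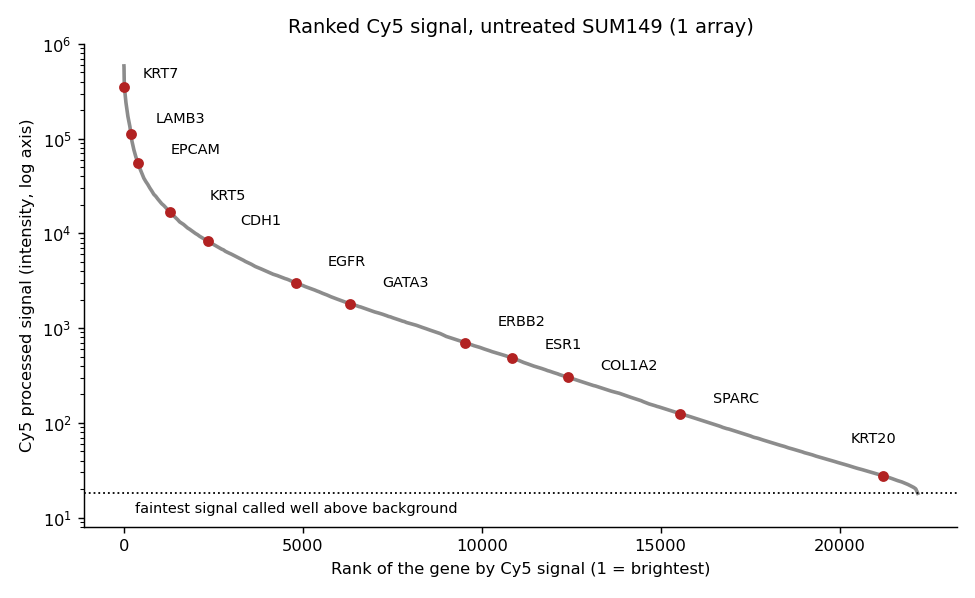
Processed Cy5 signal (intensity, log axis) of the 22185 ranked genes of untreated SUM149 cells against their rank, with named genes as points; the dotted line is the faintest signal called well above background, 18.0. KRT7, LAMB3, EPCAM and KRT5 lie on the steep left part and ESR1, at 481, lies near the middle, where the median ranked gene read 447.

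Both kinds of epithelial keratin were present. All 8 of 8 basal keratins were detected, beside 64.8% of all genes measured and 80.9% of the protein-coding ones. KRT5 read 16799.8 in untreated cells and 21209.6, 20547 and 31447 at 3, 6 and 12 h, KRT6B 44761 and 45505, 41743 and 56670.2, and KRT17 20009 and 18817, 16188 and 22738. KRT5 was lowest in untreated cells, whereas KRT6B and KRT17 lay within the range of the treated arrays. KRT6C read 15807, KRT16 6525 and KRT15, a keratin of basal keratinocytes, 1345. KRT6A read 77739 from a spot in a damaged area, against 113576, 90223 and 109107 on the treated arrays. The bright KRT14 spot was marked as an outlier on the untreated array and gave no value there, while the treated arrays read 25891, 23998 and 33040.2. The second KRT14 probe, outside any damaged area, read 2919.8. A second KRT16 probe was not above background, at 7.05.

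The 5 simple epithelial keratins were all detected as well, beside 80.9% of all protein-coding genes. KRT7 read 350979 untreated and 469345, 388566 and 466523 at 3, 6 and 12 h, KRT18 100750 and 132108, 117595 and 134551, and KRT19 89294 and 117271, 126722 and 174229. For KRT7, KRT18 and KRT19 the untreated array was the lowest of the 4, without removing the shift of 0.20, 0.20 and 0.11 over all genes. KRT8, the partner of KRT18, read 11904 from its representing probe and 2299 and 946 from the other two. KRT20, a keratin of gut epithelium, was at 27.7, close to the detection limit, and was above background on only 2 of the 4 arrays. Against the reference the 2 keratin groups parted: 5 of 6 basal keratins with a ratio were at least 2-fold higher in Cy5, beside 15% of all genes with a ratio, with a median log2 ratio of 4.61, whereas 1 of 5 simple keratins was (KRT7, 3.43), with a median of -0.20. The ratio of KRT15 was -0.94, opposite in sign to the other basal keratins.

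Genes of epithelial adhesion were detected throughout. In the basal adhesion and hemidesmosome list 16 of 16 genes were detected, beside 80.9% of all protein-coding genes. Chains of the laminin that anchors epithelium to the basement membrane were among the brightest: LAMA3 read 75748 (treated arrays 84386, 70631 and 76589) and LAMB3 112283 (114858, 121823 and 189705). Their log2 ratios to the reference were 5.31 and 3.95. Other bright members were KRT5, CD44 (15252), a receptor of hyaluronan, and CDH3 (14643), the placental cadherin of basal cells. The lowest member was COL17A1, the hemidesmosomal collagen, at 34.3. The desmosomal cadherin DSG3 read 1316 in Cy5 and was not well above background in Cy3, so that its Cy5 signal was at least 99.4-fold higher. DSC3 (at least 33.5-fold, in a damaged area) and PKP1 (at least 17.2-fold) shared this pattern. In all, 10 of 16 genes of the list were at least 2-fold higher in Cy5 and 1 (CD44, -1.12) was at least 2-fold higher in Cy3. Over all genes with a ratio these shares were 15% and 18.9%.

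All 19 of 19 epithelial junction genes and all 14 of 14 epithelial regulators were detected, beside 80.9% of all protein-coding genes. The brightest junction genes were EPCAM (55247), the epithelial adhesion molecule, PKP3 (23318), CLDN7 (14784), DSP (12467), F11R (10237) and CLDN4 (8460.3). E-cadherin, CDH1, read 8233 untreated and 14910.5, 17829.7 and 19722 on the treated arrays, the untreated array being the lowest. At the low end, the tight junction gene TJP3 read 26.0. The claudin CLDN3 stood apart from the list's median log2 ratio of 0.82, at -4.50. Among the regulators the brightest were MAL2 (24672), ESRP2 (12827), a splicing factor of epithelial cells, PRSS8 (9222), OVOL2 (5345), SPINT1 (3144) and ST14 (2731). The transcription factor EHF, of barrier epithelia, read 546 in Cy5 and was not well above background in the reference, at least 41.2-fold lower there. GRHL1, a factor of epidermal differentiation, was lowest in untreated cells at 659, against 4452, 7528 and 5726 at 3, 6 and 12 h.

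**Figure D2:**
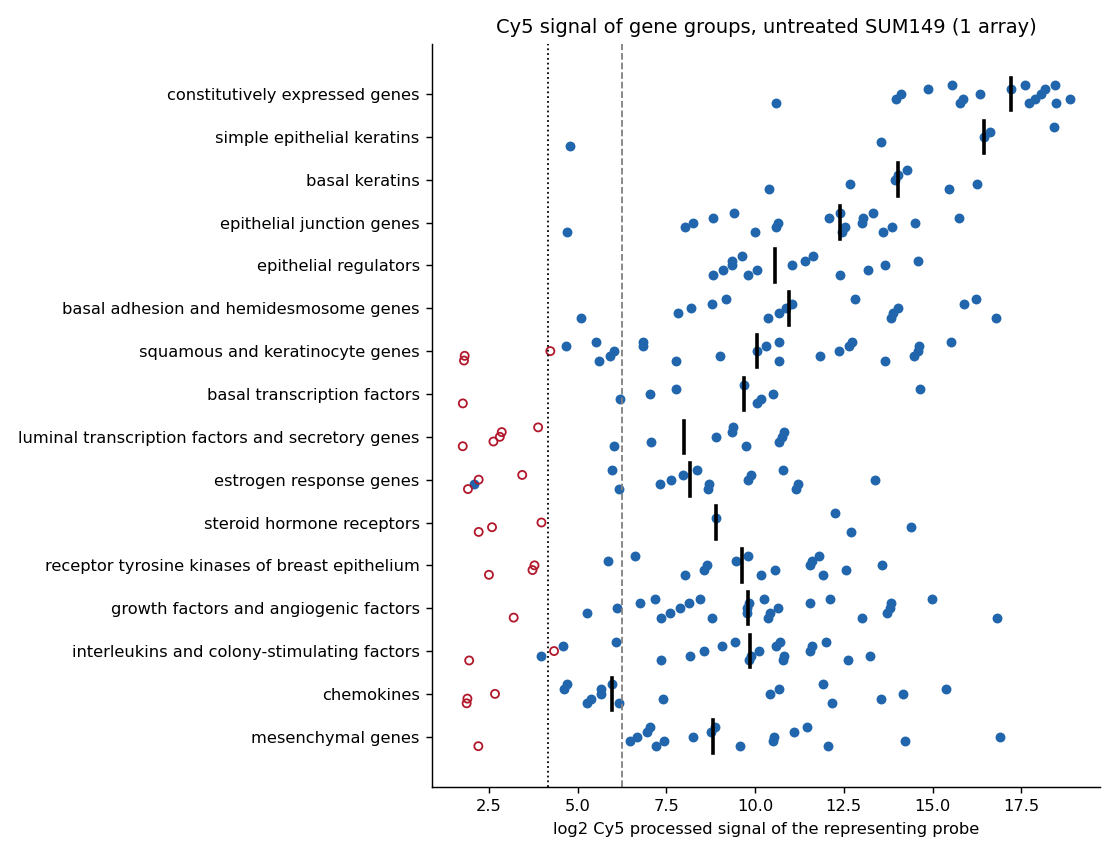
log2 processed Cy5 signal of the representing probe of each gene on the untreated array, by gene group; filled points are detected genes, open points are not well above background, black bars are group medians, the dashed line is the median of all genes (6.26) and the dotted line the faintest signal called well above background. The basal keratins have a median of 14.04 and the steroid hormone receptors one of 8.91, with 3 of 7 receptors open; GREB1, in the estrogen response group, is filled at a low signal because another of its probes was above background.

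Of the steroid hormone receptors, 4 of 7 were detected, beside 80.9% of all protein-coding genes. The progesterone receptor PGR read 4.64 and 4.01 from its 2 probes, neither of them above background, and 11.6, 9.44 and 8.10 for the first probe on the treated arrays. ESR2, the beta estrogen receptor, read 6.02 and was not above background in either channel. Neither gene was above background in Cy5 on any of the 4 arrays.

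The estrogen receptor ESR1 was detected, with probes that disagreed. Its representing probe read 481 untreated and 639, 601 and 541 at 3, 6 and 12 h, above background on all arrays. The second probe read 41.8 and the third 4.87, which was not above background. The log2 ratio to the reference was 0.63 for the first and -2.68 for the second, so the direction against the reference depended on the probe. The glucocorticoid receptor NR3C1 (6634), the vitamin D receptor VDR (4859.8, log2 ratio 2.26) and the orphan receptor ESRRA (21672) were all above background with every probe.

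Among genes known to be induced by estrogen in breast cells, 15 of 18 (83.3%) were detected, near the 80.9% of all protein-coding genes. Of 17 with a ratio, 15 were at least 2-fold higher in the reference, beside 18.9% of all genes. The median log2 ratio was -2.98, beside 0.10 over all genes. The brightest in untreated SUM149 cells were XBP1 (10712), a factor of the secretory stress response, TFF1 (2371), SERPINA1 (2287), MYB (1756), SLC39A6 (954) and STC2 (897). TFF1, a secreted trefoil peptide, had a Cy3 signal of 85293 and a log2 ratio of -5.17. AGR3 (3.76) and PDZK1 (10.9) were not above background. For GREB1 the representing spot lay in a damaged area at 4.23, and the other probes read 35.1 and 46.9.

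In the list of luminal transcription factors and secretory genes 9 of 14 genes (64.3%) were detected. The share was 64.8% of all genes measured and 80.9% of the protein-coding ones. GATA3 read 1816 untreated and 1618, 1876 and 1779 on the treated arrays, and FOXA1, which opens chromatin for hormone receptors, 851 and 725, 706 and 767. GATA3 lay within the range of the treated arrays and the representing FOXA1 probe was highest in untreated cells. A second FOXA1 probe read 4.66 in untreated cells and was above background only at 3 h, at 28.1. MUC1 (1736), a membrane mucin, MLPH (1648), TSPAN1 (669.7) and SPDEF (647) completed the brightest 6. The milk-line secretory genes PIP (14.8), SCGB2A2 (3.40) and SCGB1D2 (7.28), together with ANKRD30A (7.02) and the alveolar factor ELF5 (6.19), were not above background. No member of the list was at least 2-fold higher in Cy5, and 6 of 12 were at least 2-fold higher in Cy3. Among all genes with a ratio these shares were 15% and 18.9%.

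Of the receptor tyrosine kinases 15 of 18 (83.3%) were detected, a share near the 80.9% of all protein-coding genes. EGFR, the receptor of the epidermal growth factor family, read 3018 untreated and 2834, 2050 and 2037 at 3, 6 and 12 h, with its other probes at 208 and 39.2. The untreated signal was the highest of the 4 for this probe but not for the others, which were brightest at 3 h. All 3 probes were brighter in Cy5 than in Cy3, with log2 ratios of 1.96, 0.98 and 0.82. ERBB2 read 704 untreated and 860.5, 804 and 724 on the treated arrays, with a log2 ratio of -1.44, and its other probe read 99.1. ERBB3, which pairs with ERBB2, read 887. ERBB4 (13.8) was not above background in untreated cells, although it was at 3 and 12 h (24.6 and 32.9). Among the representing probes of the family, the ratio to the reference was positive for EGFR alone. The other ERBB2 probe, however, had a log2 ratio of 0.48. Other ERBB3 probes gave 0.30 and -0.05, against -0.92 for its representing probe. For ERBB2 and ERBB3 the direction against the reference therefore depended on the probe.

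The hepatocyte growth factor receptor MET read 12220.3 untreated and 17420.2, 16112 and 17580 on the treated arrays, with the untreated array lowest. The related receptor MST1R read 3543 with a log2 ratio of 2.52, and the ephrin receptor EPHA2 read 1521 with 3.24, the highest ratio of the list. EPHB4 (6028), the collagen receptor DDR1 (3821, log2 ratio 1.29) and AXL (3107) were further members above background with every probe. Lower signals were read for IGF1R (1145), FGFR1 (404), FGFR2 (378), FGFR4 (258), INSR (97.9) and FGFR3 (57.9). For FGFR1 the untreated array was the lowest, against 918, 1126 and 1413 at 3, 6 and 12 h. FGFR3 was the farthest below the reference, with a log2 ratio of -6.09. KIT (5.67), the stem cell factor receptor, and ALK (13.3) were not above background in untreated cells, although each was at 12 h, KIT with a probe other than its representing one. Of 18 genes, 4 were at least 2-fold higher in Cy5 and 8 in Cy3, beside 15% and 18.9% of genes with a ratio.

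**Figure D3:**
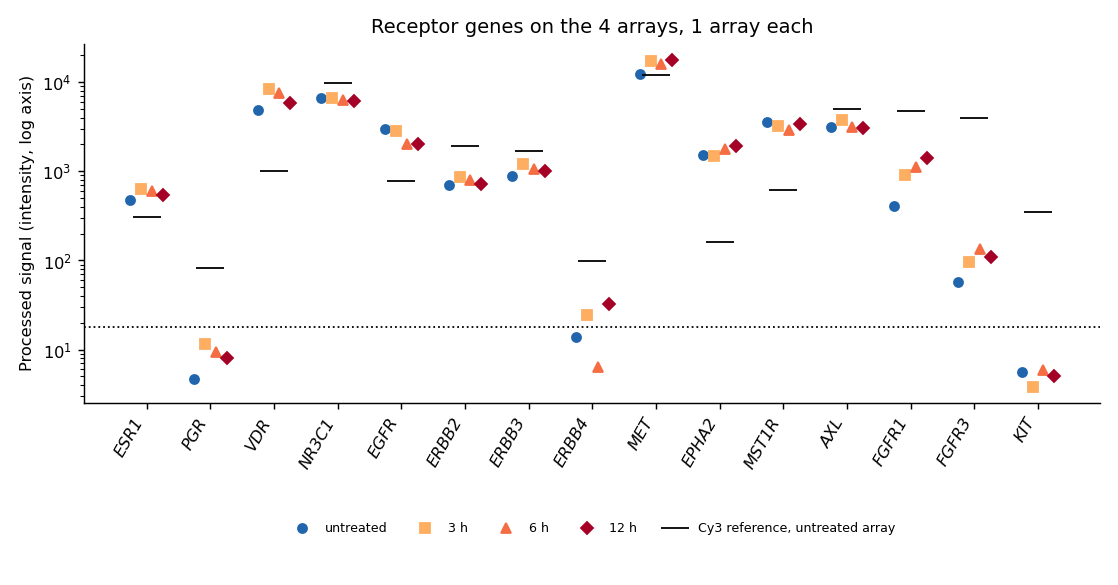
Processed signal (intensity, log axis) of the representing probe of 15 receptor genes in Cy5 on the untreated array and after 3, 6 and 12 h of ACY1215, 1 array each, with the Cy3 reference of the untreated array as a bar and the faintest Cy5 signal called well above background as a dotted line. PGR and KIT lie below the line on every array, ESR1 lies between 481 and 639, and EGFR lies above its reference bar whereas ERBB2 lies below it.

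Genes beside ERBB2 on its chromosome, which tumours with an amplified region carry in extra copies together with it, gave no common direction. In this list 10 of 11 were detected, beside 80.9% of all protein-coding genes. Of the 11, 1 was at least 2-fold higher in Cy5 (TCAP, 1.68, in a damaged area) and 2 in Cy3. These counts lay near the 15% and 18.9% of all genes with a ratio. The brightest were ORMDL3 (9785), STARD3 (8089), MIEN1 (7979.9), PSMD3 (4866), ERBB2 and CDK12 (660.1). PNMT (10.7) was not above background. Median log2 ratio was -0.32.

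In the growth factor list 25 of 26 genes were detected, beside 80.9% of all protein-coding genes. The ligands of EGFR in it ranged from among the list's brightest members to below background. Amphiregulin, AREG, read 115199 untreated and 142330, 167886 and 196811 at 3, 6 and 12 h, and epiregulin, EREG, 4440.02 and 9117, 10150.3 and 10268. Both were lowest in untreated cells and far above the reference, by log2 ratios of 5.32 and 5.22. TGFA read 3013, HBEGF 193 and BTC 145, the last at least 10.9-fold above the reference, where it was not well above background. EGF itself was the only gene of the list not above background, at 9.19. NRG1, the ligand of ERBB3, read 1322 with a log2 ratio of 3.26. The other bright members were INHBA, the activin subunit (32240.5, log2 ratio 4.02), VEGFB (14645), the Wnt antagonist DKK1 (14237), the lymphatic growth factor VEGFC (13461) and ANGPTL4 (8275). VEGFA, the main angiogenic factor, read 1592, below its reference signal of 3739. In all, 14 of 26 genes were at least 2-fold higher in Cy5 and 7 in Cy3, beside 15% and 18.9% of all genes with a ratio.

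The basal transcription factors were mixed. TP63, the factor of the basal layer of stratified epithelia, was not above background on any array, reading 3.41 untreated and 3.18, 4.49 and 4.04 at 3, 6 and 12 h from the only probe it has. The other 8 were detected. EN1, a homeobox factor, read 1149 against a reference of 27.8, with a log2 ratio of 5.37. SOX9 read 822 (1.27), FOXC1 1056 (0.19) and YBX1 25786 (0.53), each with the log2 ratio in brackets. On the other side of the reference were EGR1 (1463, -3.79), SOX10 (72.7, -2.61), ID4 (132, -1.81) and BCL11A (218, -1.86), of which BCL11A had 1 of 4 probes above background.

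The list of basal B and caveolar genes, basal B being the more mesenchymal basal lines, also holds genes of epithelia such as SFN. All 13 of 13 were detected, beside 80.9% of all protein-coding genes. Of the 13, 7 were at least 2-fold higher in Cy5, beside 15% of all genes with a ratio. The 2 at least 2-fold higher in Cy3 were VIM (log2 ratio -3.43) and CD44 (-1.12), beside 18.9% of those genes. The brightest were SFN (167581), a cell cycle checkpoint protein of epithelia, ANXA1 (55201), S100A2 (54470.2), CAV1 (24229.9), VIM (19029) and CD44. Contractile genes of myoepithelial cells were detected too, 9 of 9, yet none was at least 2-fold higher in Cy5 and 5 were at least 2-fold higher in Cy3. Apart from tropomyosin TPM2 (19714) the members lay at or below 652 (MME): MYLK read 451, ACTG2 383, TAGLN 342 and smooth muscle actin ACTA2 131.

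Squamous and keratinocyte genes were detected in 22 of 25 cases (88%), beside 80.9% of all protein-coding genes. The secreted antimicrobial and protease inhibitor genes were the brightest: S100A8 read 47127 untreated and 41531, 51913 and 66247 on the treated arrays, PI3 (elafin) 25198 and 20245, 21423 and 26053, and LCN2 (lipocalin) 24518 and 24611, 25465 and 40055. Their log2 ratios to the reference were 5.21, 4.51 and 5.68. SERPINB5 (maspin, 22669.5), SLPI (12902) and KRT80 (6860.1, in a damaged area) followed. The late markers of the horny layer were split: SPRR1A read 5311, whereas involucrin, IVL (18.8), and the skin proteases KLK5 (3.53) and KLK7 (3.48) were not above background. Over the list 13 of 23 genes were at least 2-fold higher in Cy5 and 3 in Cy3. The shares over all genes with a ratio were 15% and 18.9%.

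Mesenchymal genes were detected in 17 of 18 cases, beside 80.9% of all protein-coding genes, and lay mostly below the reference. Of 17 with a ratio, 11 were at least 2-fold higher in Cy3, beside 18.9% of all genes. The median log2 ratio was -2.36. TGFBI, a matrix protein induced by TGF-beta, read 123108 with a log2 ratio of 1.97, and vimentin, VIM, read 19029 against a reference of 205769, with -3.43. The transcription factors that drive the loss of epithelial features did not share a direction: SNAI1 (4239.5, 1.77), SNAI2 (1449, 1.42) and TWIST1 (465, 1.90) had log2 ratios above 1, while ZEB1 (88.3, -4.25) and ZEB2 (102, -2.14) lay below the reference. TWIST2 (2202), S100A4 (2829) and N-cadherin, CDH2 (1481), were the other bright members. SPARC read 125 with a log2 ratio of -6.75, and the collagen COL3A1 (4.61) was not above background on any array.

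Matrix proteases and the plasminogen system were detected in 22 of 23 cases, beside 80.9% of all protein-coding genes. The brightest were TIMP1 (10678), PLAT (10065) and PLAU (8304), the activators of plasminogen, CTSD (3947), TIMP2 (3531) and SERPINE2 (2713). MMP10 (9.70) was not above background. The list held 4 genes at least 2-fold higher in Cy5, among them MMP7 (541, 4.47) and MMP9 (1564, 3.46, in a damaged area), and 12 at least 2-fold higher in Cy3. Over all genes with a ratio the shares were 15% and 18.9%.

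Of the genes used to mark stem-like breast cancer cells, 11 of 14 (78.6%) were detected, near the 80.9% of all protein-coding genes. CD24 read 24254 untreated and 37418, 36512 and 55759 on the treated arrays, and CD44 15252 and 20285, 21199 and 20362, with untreated cells lowest for both. The aldehyde dehydrogenase ALDH1A3 read 13640 untreated and 10729, 7150.02 and 5746 at 3, 6 and 12 h, the highest of the 4 arrays, with a log2 ratio of 4.40. Its relative ALDH1A1 read 286, below the reference (-2.04). ITGA6 (7191), PROCR (6818) and NOTCH1 (4793) were among the brightest. PROM1 (3.98), SOX2 (14.3) and LGR5 (4.10) were not above background in untreated cells, SOX2 being at least 202-fold below its reference signal of 3644. On the treated arrays SOX2 was above background, at 39.0, 56.8 and 44.1.

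Among interleukins and colony-stimulating factors 20 of 22 genes (90.9%) were detected, beside 80.9% of all protein-coding genes, and 12 of 20 were at least 2-fold higher in Cy5, beside 15% of all genes with a ratio. IL1B, interleukin 1 beta, read 9642 untreated and 5162, 9079 and 16595 at 3, 6 and 12 h. IL1A read 1795 and 1897, 2355 and 3153, CSF3, the granulocyte growth factor, 4078 and 2699, 3903 and 4406, and TNF 1542 and 3014, 5986 and 4318. TNF was lowest in untreated cells, whereas CSF3 and IL1B lay within the range of the treated arrays. The log2 ratios to the reference were 5.67 for IL1A, 5.16 for CSF3, 4.83 for TNF and 4.11 for IL1B, and their reference signals were 35.2, 114, 54.3 and 557.

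IL32 (6223), the receptor antagonist IL1RN (3109.9), IL18 (2983) and LIF (1776) were the other bright members. IL6 read 938 untreated and 781, 1427 and 3514 on the treated arrays, with a second probe not above background. IL12A (20.2) and TSLP (3.86) were not above background in untreated cells. TNFSF10 lay in a damaged area, at 15.7 against 87.8, 101 and 83.7 elsewhere.

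Of the chemokines 16 of 19 (84.2%) were detected, near the 80.9% of all protein-coding genes. Chemokine signals ran from 3.67 (CXCL9) to 42445 (CXCL1). Those that attract neutrophils differed among themselves. CXCL1 read 42445 untreated and 42154, 56078 and 73262 at 3, 6 and 12 h, CXCL2 18271 and 15746, 20563 and 27407, CXCL3 11857 and 5515, 4015 and 5761, and CXCL8 4624 and 6509, 13002 and 21268. Lower signals were read for CXCL5 (1372, log2 ratio -0.13) and CXCL6 (170.4), which attract the same cells. CCL20, which attracts dendritic cells and lymphocytes, read 3872 and 9258, 18733 and 31097. CXCL8 and CCL20 were lowest in untreated cells and CXCL3 highest. CXCL1, CXCL2, CXCL3, CXCL8, CCL20 and CXCL16 (1624) were the 6 brightest of 19 genes, and these 6 and CXCL6 (at least 12.9-fold) were the 7 genes at least 2-fold above the reference. They were 7 of 17 chemokines with a ratio, beside 15% of all genes with a ratio. Of other chemokines, which attract monocytes or T cells, CCL2 read 38.6 against a reference of 2472, CCL5 50.5 and CXCL10 24.6, and CXCL9 (3.67), CXCL11 (6.39) and CCL7 (3.72) were not above background. 8 of 17 chemokines were at least 2-fold higher in Cy3, beside 18.9% of all genes with a ratio. The list's median log2 ratio was -0.13.

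**Figure D4:**
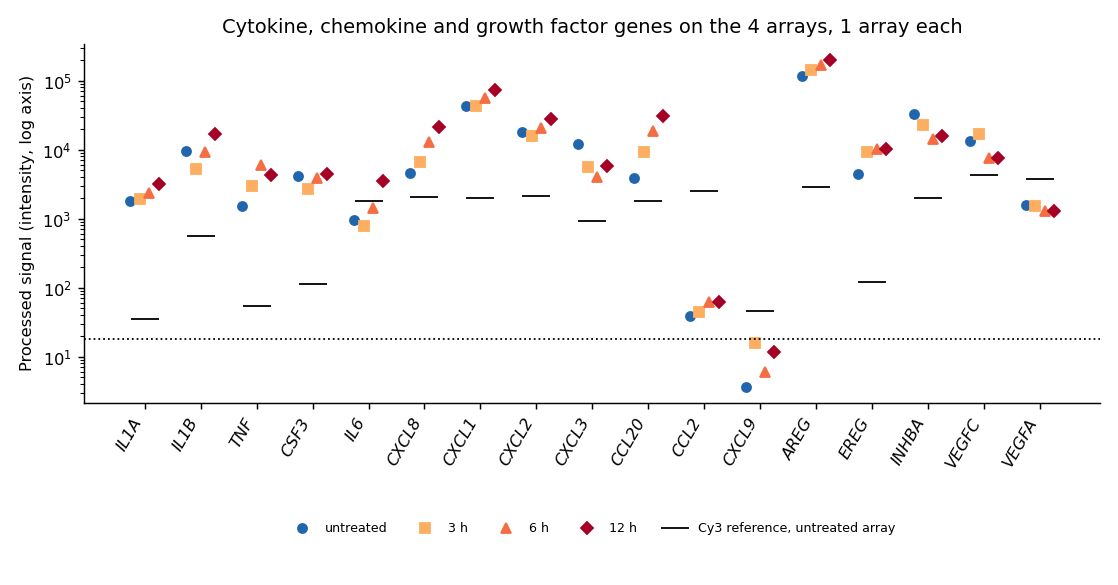
Processed signal (intensity, log axis) of the representing probe of 17 cytokine, chemokine and growth factor genes in Cy5 on the untreated array and after 3, 6 and 12 h of ACY1215, 1 array each, with the Cy3 reference of the untreated array as a bar and the faintest Cy5 signal called well above background as a dotted line. AREG, CXCL1 and INHBA stand at the top, CXCL9 lies below the line on every array, and CCL2 (38.6) lies far below its reference bar (2472).

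Receptors of cytokines and chemokines were detected in 28 of 30 cases, beside 80.9% of all protein-coding genes. As many were at least 2-fold above the reference (7) as below (7), beside 15% and 18.9% of all genes with a ratio. TNFRSF12A (47740.4), IL4R (7773), IFNGR1 (7755), TNFRSF10B (7701), IL20RB (6237) and IL17RA (5791) were the brightest. LIFR (13.6, in a damaged area) and the chemokine receptor CXCR2 (13) were not above background. For LIFR the treated arrays read 97.5, 191 and 105 and all 3 were above background.

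Genes often discussed in inflammatory breast cancer were detected in 18 of 20 cases (90%), beside 80.9% of all protein-coding genes. RHOC, a small GTPase of cell motility, read 8161 untreated and 8637, 10892 and 11751 at 3, 6 and 12 h, the untreated array being lowest. WISP3, a secreted protein described as lost in this disease, was not above background on any array, at 4.02 untreated. CAV1 (24229.9), SOD2 (17602), VEGFC (13461), CDH1 and CAV2 (6793) were the other bright members. RARRES1 (6103) had the highest log2 ratio of the list, 5.35, whereas the chemokine receptors CXCR4 (154, -5.96) and CCR7 (39.4, -4.42) had the lowest. CXCR4 was also lowest in untreated cells, against 681, 804 and 442. ALK, as above, was not above background.

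Genes of antigen presentation were detected in 17 of 18 cases, beside 80.9% of all protein-coding genes. Class I genes were bright: HLA-E read 182339, B2M 17583, HLA-C 16394 and HLA-B 12821, and the checkpoint gene CD276 36821. Probes of the HLA genes can share targets between these near-identical genes. These 4 class I genes lay 2-fold or more below the reference, with log2 ratios from -2.98 to -1.01. CD74, the chaperone of class II, was not above background (3.73). All 21 of 21 proliferation genes were detected, led by TYMS (40036), PCNA (33528), BIRC5 (30611), AURKA (13566), RRM2 (12425) and CCNB2 (12338), with a median log2 ratio of 0.18. The bright CCNB1 spot was marked as an outlier, and the second probe read 3950.4. All 17 constitutively expressed genes were detected, among them RPS18, ACTB, EEF1A1 (296113), RPLP0 (273717) and TUBA1B (241514), with a median log2 ratio of 0.33. HDAC6, the target of the drug, read 1073 from its representing probe and 117 from the other in untreated cells, and the first read 1094, 878 and 746 on the treated arrays.

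For genes of other cell types, detection alone did not show what the line lacks. Of 126 marker genes of cell types other than breast epithelium, 93 (73.8%) were above background in Cy5, beside 80.9% of all protein-coding genes. Their median Cy5 signal was 68.9, beside 493 for protein-coding genes. A share close to that of all coding genes says little about any of these cell types, so their markers are given by value.

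The groups differed. Of endothelial genes 5 of 10 were detected, led by CDH5 (692), VWF (219.8) and ESAM (137), while TEK (4.35, in a damaged area), TIE1 (4.16), ERG (3.97), CLDN5 (11.4) and EMCN (10.6) were not. Of B and plasma cell genes 5 of 11 were, among them SDC1 (5257), which epithelial cells also carry, and CD79A (4714), while MS4A1 (16.1), CD79B (5.11), PAX5 (5.87), TNFRSF17 (9.13), TNFRSF13B (4.47, in a damaged area) and IRF4 (8.65) were not. Of glial and neural genes 5 of 11 were, led by MBP (3827), and GFAP (4.92), OLIG2 (8.81), NCAM1 (16.5), BCAN (3.87), FABP7 (6.16) and GAP43 (3.69) were not. In each of these groups, then, markers stood on both sides of the background limit.

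Among adipocyte genes ADIPOQ (4.69), FABP4 (4.96), PLIN1 (5.37) and LEP (3.87) were not above background, whereas LPL (4354), PPARG (2975) and CIDEC (1732) were. Of muscle genes 6 of 10 were detected, led by TNNT1 (4836) and DES (1125), and CKM (5.04), MYL1 (5.37), CSRP3 (4.36) and MYOG (4.34, in a damaged area) were not. MYOG read 169, 192 and 217 on the treated arrays. Of fibroblast genes 7 of 10 were detected. FAP, a protease of activated fibroblasts, read 7713 with a log2 ratio of 2.99, while PDGFRA (9.61), POSTN (5.41) and COL3A1 were not above background and LUM read 26.2.

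All 11 T cell genes were above background, most of them dim: CD3D read 392, CD3E 373, CD8A 517, ZAP70 176 and LCK 162. CD4 read 25699 from its representing probe and 3.93, not above background, from the other. Of myeloid genes 10 of 11 were detected, led by FCER1G (6235), CD14 (1989), TYROBP (1303), CSF1R (1044), ITGAM (297) and SPI1 (161), while the pan-leukocyte gene PTPRC read 55.1 and MPO (9.98) was not above background. Of red cell genes 8 of 9 were, with HBG1 at 17346 and HBZ at 11350.5, both brighter still in Cy3 (348118 and 75990.5), and HBB (6.37) was not. Probes of the globins can share targets.

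The liver, melanocyte and embryonal groups were detected in Cy5 but far brighter in the reference. Over all protein-coding genes 80.9% were detected, and over all genes with a ratio 18.9% were at least 2-fold higher in Cy3. Of hepatocyte genes 15 of 16 were above background in Cy5, with FGB (5.05) the exception, and 16 of 16 were at least 2-fold higher in Cy3, with a median log2 ratio of -5.15. The Cy5 signal of albumin, ALB, was 504 untreated and 562, 521 and 471 on the treated arrays, next to a Cy3 signal of 88335. AHSG (2317), SERPINA1, APOA2 (1823), AMBP (1679), AFP (792) and HP (627) were the brightest. Of melanocyte genes 8 of 8 were above background, 7 at least 2-fold higher in Cy3, with PMEL at 6109 in Cy5 and 100206 in Cy3. Of embryonal and germ cell genes 10 of 12 were above background and 11 at least 2-fold higher in Cy3. UTF1 read 7018 with a log2 ratio of -0.19, POU5F1 1091 with -4.67, DNMT3B 1114 with -2.70, and DPPA2 (12.5) and SOX2 were not above background. In these 3 groups bright Cy3 signals went together with Cy5 signals above background, and the part of the reference in the Cy5 signals was not tested.

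**Figure D5:**
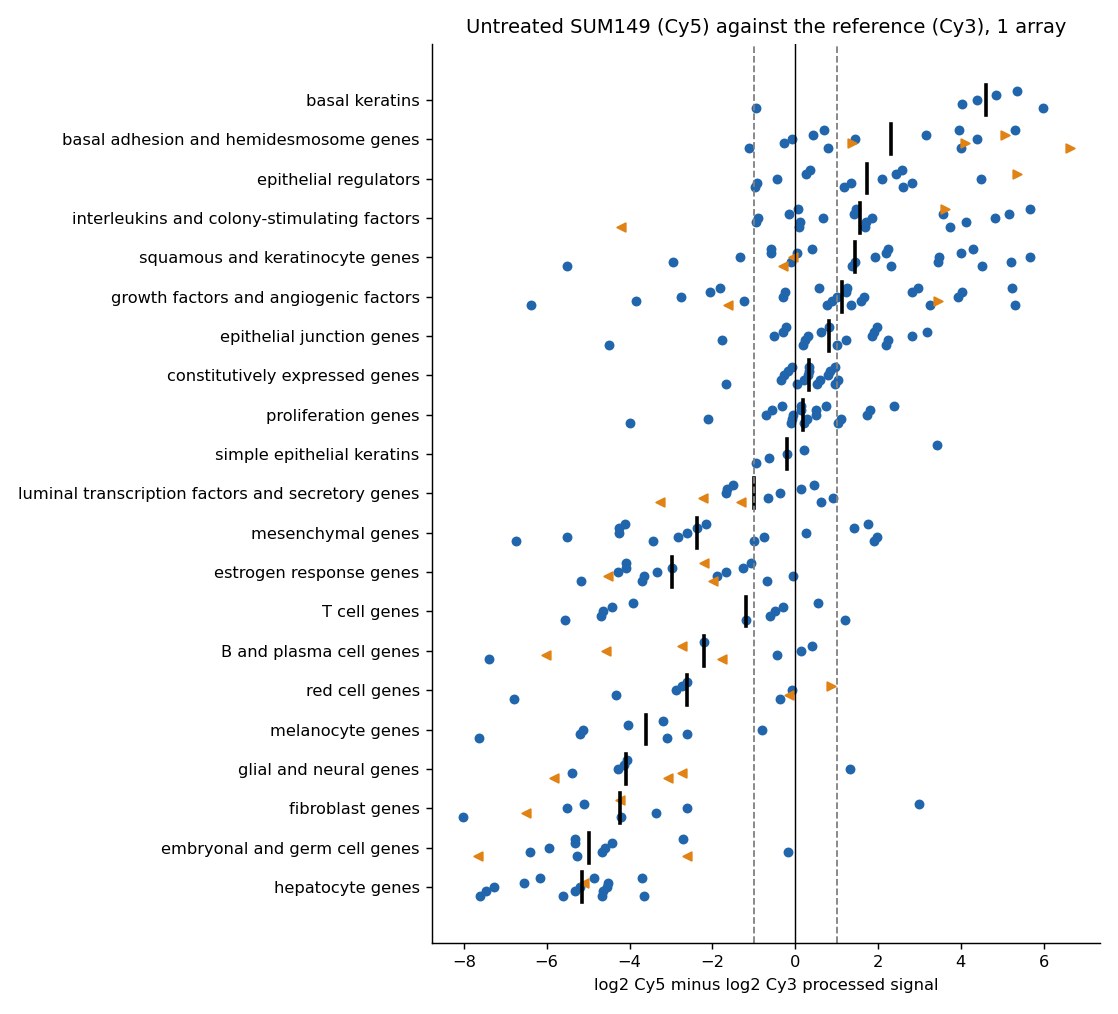
log2 processed Cy5 signal minus log2 processed Cy3 signal on the untreated array, by gene group; round points are genes well above background in both channels, triangles are bounds for genes above background in a single channel and point to where the value lies, black bars are group medians and the dashed lines mark 2-fold. Basal keratins have the highest median of the groups shown (4.61) and hepatocyte genes the lowest (-5.15), while the constitutively expressed genes sit near 0 (0.33).

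Over the whole array 21300 genes were above background in both channels, with a median log2 ratio of 0.19 and an SD of 1.31 across genes. Counting bounds, 3706 of 24634 genes were at least 2-fold higher in Cy5 and 4653 in Cy3. Which side held more genes depended on the signal filter: with both channels above background the counts were 3211 and 3207. Genes higher in Cy5 made up 44.3% of the genes past 2-fold, and 33.9% once the ratios were centred on their median, 33.3% and 31.6% with normexp background correction (offsets of 50 and 1) and loess.

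The 15 genes farthest above the reference, FDXR apart, had log2 ratios from 5.68 to 7.60. Among them were the keratins KRT6B (log2 ratio 5.98) and KRT75 (5.83), the protease inhibitor SPINK6 (6.61), lipocalin LCN2 (5.68), the keratinocyte factor BNC1 (5.69), the EGFR ligand epigen, EPGN (6.24), and FGFBP1 (5.92), which carries fibroblast growth factors. SPINK6 read 17529.7 untreated and 14622, 14493 and 10874 on the treated arrays, and EPGN 2991 and 2534, 2542 and 3156. The transcription factors ZBED2 (7.60) and TFCP2L1 (6.43) were highest in untreated cells, with 3665 against 2599, 1669 and 1678 and 8409.8 against 8317, 6682 and 4708. PNLIPRP3 (5.71) and C15orf48 (5.74) and the noncoding LINC00460 (6.36), FLJ22447 (6.30) and lnc-TMEM132C-7 (6.46) were the others. The 3 probes of LINC00460 gave log2 ratios of 6.36, 6.45 and 6.28. The size of these ratios depended on the background correction: with normexp (offset of 50) and loess the value was 4.10 for ZBED2, 3.14 for FLJ22447, 2.52 for KRT75 and 5.67 for KRT6B, so that their order changed.

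The highest ratio of all, 8.09 for the mitochondrial reductase FDXR, came from a damaged area. Its Cy3 signal there was 25.4, against 14955, 13513 and 12345 on the 3 treated arrays, which carry the same reference, while its Cy5 signal of 6937 lay nearer the 11469.5, 11789.9 and 10930.4 of those arrays. For KRT6B, outside such areas, the Cy3 signals were 710.4 and 717, 632 and 711.

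The 15 genes farthest below the reference included 6 of plasma proteins. IGFBP1, a liver protein that binds insulin-like growth factors, had a Cy5 signal of 56.5 and a Cy3 signal of 33909, with a log2 ratio of -9.23. The plasma proteins APOH (-7.61), ALB (-7.45), FGG (-7.27), the protease inhibitor A2M (-7.37) and the selenium carrier SEPP1 (-8.58) were further members. The matrix genes were THBS2 (-8.44) and LUM (-8.03), the melanocyte gene was MLANA (-7.64), and the B cell coactivator was POU2AF1 (-7.40). RHOXF2 (-8.99) and MAGEA6 (-8.94) are genes of the germ line. UTS2 (-8.13), TMSB15A (-7.33) and NTS (-6.97) completed the 15. For the 5 of these genes with a second probe, that probe lay nearer the reference, with -3.26 for MAGEA6, a member of a family of near-identical genes, -2.64 for THBS2, -4.46 for MLANA, -5.07 for SEPP1 and -5.63 for UTS2. Because these genes were picked for low ratios at their brightest Cy3 probe, the choice itself favoured that outcome. None of these 15 lay in a damaged area, and their Cy5 signals in untreated cells ran from 23.7 to 504.

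Most genes detected in untreated cells were also detected after treatment. Of the genes detected untreated, 92.5% were detected on all 4 arrays, and 291 only on the untreated one. The latter were faint, with a median signal of 28.1 in their brightest probe, beside 563 for genes detected on all 4. Across genes the log2 Cy5 signal of untreated cells correlated with that of the 3, 6 and 12 h arrays at 0.985, 0.975 and 0.976 (genes are not independent replicates and share probe brightness). The median difference of treated minus untreated log2 Cy5 signal was 0.20, 0.20 and 0.11 over all genes at 3, 6 and 12 h. For epithelial junction genes it was 0.51, 0.81 and 0.97, for basal keratins -0.09, -0.31 and 0.18, for luminal factors and secretory genes 0.15, -0.02 and -0.03, and for mesenchymal genes 0.21, 0.13 and 0.00. The median of the junction genes lay above that of all genes at each time, and so did the medians of other lists, among them the matrix proteases (0.46, 0.52 and 0.37), the simple epithelial keratins (0.39, 0.35 and 0.54) and the stem cell associated genes (0.39, 0.35 and 0.40). With 1 array per time these differences have no replicate check.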

How the data were processed

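Total RNA of untreated SUM149 cells (Cy5) and a reference (Cy3) was hybridised to 1 two-colour array, 1 of 4 on the same slide in the same scan. Per the file headers the authors extracted the spots with Agilent Feature Extraction 12.0.1.1 on a design of build hg19. The authors deposited intensity values: processed signals, background-subtracted and dye-normalized by that software (linear and lowess), and median spot and background signals, with flags of 0 or 1. A series table of normalized log2 values with gene symbols was deposited too. Its normalization is not given in the sources used here, nor its centring, and its untreated column had a median of 0.17 and a correlation with the log2 ratio used here of 0.983 across genes, so that its direction is Cy5 over Cy3. The log10 ratio columns were not used. Symbols were taken from this table by probe name.

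Control spots and outlier-flagged spots were left out, and spots of a probe averaged as log2 values. A gene was represented by its brightest probe in Cy3, averaged over the 4 arrays, and 10268 of 34755 genes had several probes. Ratios are log2 Cy5 minus log2 Cy3. With a channel not well above background, the ratio is a bound, for which the dim signal was raised, if lower, to the faintest one called well above background on that array. An area was called damaged where, in a window of 13 rows and 7 columns, 10% or more of spots were outliers or had Cy3 over 2-fold from the median of the arrays. Symbols were matched to a RefSeq gene table for 22673 genes, only to tell protein-coding genes apart. No coordinates or sequences are given here. Of 506 listed genes in 37 lists, 504 were on the array, and 34 stand in more than 1 list.

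Named genes were the 25 with the highest Cy5 signal, HDAC6, every gene of the receptor, keratin and basal transcription factor lists, in each other list up to 6 with the highest signal and those not above background, and the 15 highest and lowest ratios, of which a few genes are not reported here. Others named here (such as TJP3, COL17A1, VEGFA, CCL2, SPARC, PTPRC) were chosen after their values were seen. The lists were chosen with earlier results of these data known. Alternatives used normexp background correction and loess in limma 3.58.1 (R 4.3.3), other probe choices and the authors' table. Analyses were run in Python 3.11.15 with pandas 2.3.3 and numpy 2.4.6, after tests on simulated data. The number of arrays, 1 per condition, limits the precision.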

Additional observations from a re-analysis of the deposited data

Results flagged for a closer look

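Probes without a gene symbol in the authors' table were outside every comparison above. Of 9280 such probes measured on the untreated array, 3968 (42.8%) were well above background in Cy5, whereas 1 of 308 negative control spots was. They stand here because they carry signal above the control spots in data that no comparison used.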

How the results depend on the processing

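The count of detected genes stayed within 1.5 times the reported 22454 under the alternatives of processing, from 21777 (without damaged areas) to 27761 (a laxer background mark). Protein-coding genes alone numbered 14990, which is a part of the same calls and no other way of processing. Genes at least 2-fold higher in Cy5 numbered 3706 as reported, 1409 with normexp (offset 50) and loess, 2301 with an offset of 1, and 889 at 4-fold. Those higher in Cy3 numbered 4653, 2823 with the offset of 50 and 2277 at 4-fold. With the other alternatives these counts stayed within 1.5 times.

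List medians of log2 Cy5 signal are given here above the median of all genes. As reported they were 7.77 for basal keratins, 1.72 for luminal factors and secretory genes, 6.14 for junction genes, 2.54 for mesenchymal genes and -0.30 for chemokines. With the brightest Cy5 probe they were 7.66 for basal keratins, 1.86 for luminal factors and secretory genes, 6.08 for junction genes, 2.48 for mesenchymal genes and -0.17 for chemokines. With the median over probes they were 8.27 for basal keratins, -0.015 for luminal factors and secretory genes, 4.91 for junction genes, 2.77 for mesenchymal genes and 0.15 for chemokines. With plain background subtraction they were 8.12 for basal keratins, 1.67 for luminal factors and secretory genes, 6.64 for junction genes, 2.77 for mesenchymal genes and -0.17 for chemokines. Without damaged areas the basal keratins stood at 7.67. The median over probes turned the sign for the luminal list, the chemokines and the steroid hormone receptors (from 2.64 to -0.34), and the cause was not tested. A check of ratios covered 73 genes with a ratio. They were HDAC6, members of the receptor, keratin and basal transcription factor lists, and the genes with the highest and lowest ratios. Named genes of the other lists were left out unless their ratios were extreme. All 73 kept the sign of the ratio with normexp (offset 50) and loess, with the authors' table and with the brightest Cy5 probe. Of 56 past 2-fold, 52, 55 and 56 stayed past it. For most of the 73 the brightest Cy5 probe was the representing one, so this last setting could seldom change a sign. Other probes of some genes, among them ESR1, ERBB2, ERBB3 and HDAC6, gave a ratio of opposite sign. The 73 ratios moved by a median of 0.94, 0.37 and 0 on the log2 scale. EN1 fell from 5.37 to 2.56 with normexp.

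No paired analysis was possible because each condition had 1 array. For the same reason no value has a biological error, and signal over background limits what is detected: the median Cy5 spot signal was 38.5 over a median local background of 24.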

Other observations

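The share of genes detected in untreated SUM149 cells differed between classes of noncoding genes, without a test of the difference. Of the genes that the RefSeq table calls long noncoding, 1618 of 2986 (54.2%) were detected, with a median Cy5 signal of 25.4, beside 14990 of 18527 (80.9%) of protein-coding genes with a median of 493. Small nucleolar RNAs, which guide the modification of ribosomal RNA, were detected in 222 of 287 cases (77.4%), with a median of 122, and transcribed pseudogenes in 443 of 675 (65.6%), with a median of 64.4. A small class of other noncoding RNAs was detected in 20 of 21 cases (95.2%), with a median of 166. Brightness between probes does not order RNA amounts, so these medians describe spots.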
